A study of Mus musculus with 3 samples.

Results

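A set of 10 genes of bone morphogenetic protein (BMP) signalling was followed in endothelial cells (ECs) of the adult mouse lung. They are the type I receptor *Acvrl1* (ALK1), the type II receptor *Bmpr2*, the co-receptor *Eng* (endoglin), the ligand *Bmp6*, the inhibitory Smads *Smad6* and *Smad7*, the transcriptional inhibitors *Id1*, *Id2* and *Id3*, and *Tmem100*. They were chosen by symbol for their place in BMP9/ALK1 signalling and its link to pulmonary hypertension, not by their level. Earlier results of these data were known when they were chosen. All 10 have a row among the 24346 genes of the table. The ECs came from lungs of wild type C57BL/6J mice and were taken fresh from the tissue, without culture. According to the study's methods the mice were adult males that received an antibody to VE-cadherin into the circulation, and the cells were stained for CD31, CD45 and podoplanin and sorted by flow cytometry. The libraries S38, S44 and S52 form 1 group, so no condition could be compared and no p-value is given. The labels do not say whether the libraries came from separate mice, and their spread may therefore be technical. Values are FPKM, fragments per kilobase of transcript and per 1000000 fragments, which are scaled to gene length, so the levels of different genes can be set side by side. Where 3 values are given together, they stand in the order S38, S44 and S52.

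In this pathway a BMP ligand binds a complex of type I and type II receptors, the type II kinase activates the type I kinase, and the type I kinase phosphorylates the receptor Smads, which enter the nucleus with Smad4. In ECs the circulating ligands BMP9 (*Gdf2*) and BMP10 signal through ALK1, with endoglin as co-receptor, and the *Id* genes and *Smad6* are among the immediate targets. Inherited loss of *BMPR2* function is the main cause of heritable pulmonary arterial hypertension, and loss of *ENG* or *ACVRL1* function causes hereditary haemorrhagic telangiectasia.

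All 10 genes were detected, which here means an average of 1 FPKM or more and was true of 48.3% of all genes. Of the 10, 8 averaged 100 FPKM or more, against 3.64% of all genes. The median over the 10 genes was 153, 156 and 159 FPKM, and the median of their means was 155 FPKM. The highest and the lowest library of a gene were over 2-fold apart, on the FPKM + 1 scale, for none of the 10, for 12.7% of all detected genes and for 7.9% of genes averaging 10 FPKM or more. As deposited, none of the 10 was over 1.5-fold apart, against 24.9% of the genes averaging 10 FPKM or more, but this depended on the scaling of the libraries. With each library rescaled to the same sum, 4 of the 10 were over 1.5-fold apart (*Smad7* 1.82, *Smad6* 1.71, *Id2* 1.62 and *Tmem100* 1.53), against 47.8% of those genes, and with the endothelial marker medians set equal 1 was (*Id2* 1.59), against 27.3%. With short noncoding genes left out of the sum none of the 10 was, against 26.2%. As deposited, the median ratio was 1.21 over the 10 genes and 1.29 over the 6269 genes averaging 10 FPKM or more.

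**Figure D1:**
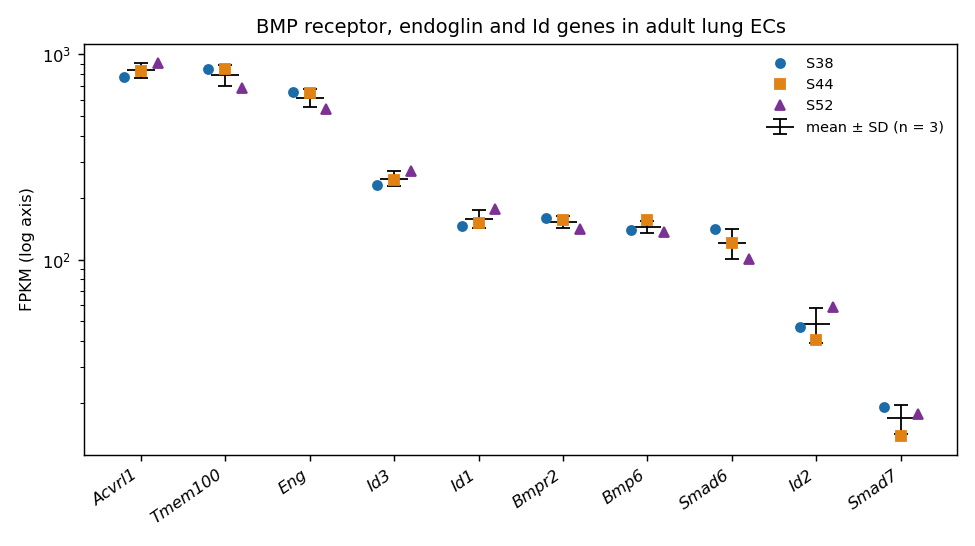
FPKM (log axis) of the 10 genes in the libraries S38, S44 and S52, with the mean and SD over the 3 libraries as black bars. *Acvrl1*, *Tmem100* and *Eng* lie at 542 FPKM or higher in every library, and *Smad7*, the lowest, lies between 13.8 and 19.0 FPKM.

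All 10 endothelial marker genes were detected in the sorted cells, 9 of them at an average of 100 FPKM or more, with a list median of 482, 533 and 484 FPKM. Of the 10, 4 were over 1.5-fold apart between libraries, *Erg* and *Emcn* with S52 highest (59.2, 43.1 and 84.8 FPKM, and 156, 181 and 267 FPKM) and *Cldn5* and *Kdr* with S52 lowest (1486, 1732 and 1029 FPKM, and 379.9, 360.4 and 237 FPKM). Library S52 stood apart in the markers of other lung cells, though not in the same direction for all lists. The alveolar type 1 list had a median of 26.9, 20.5 and 34.6 FPKM, with *Ager* and *Rtkn2* highest in S52 and *Hopx* and *Aqp5* lowest. The mural list had a median of 6.47, 4.72 and 10.1 FPKM. Other lists were lower in S52. The median of the 4 platelet genes was 244, 216 and 9.11 FPKM. The sum of the 5 alveolar type 2 genes was 3756, 3156 and 760 FPKM and that of the 5 airway genes 2792, 2316 and 410 FPKM. The sum of the 5 leukocyte genes was 1078, 817 and 186 FPKM, most of it *Lyz2* (1047, 780 and 166 FPKM). The leukocyte median was 8.70, 7.32 and 3.17 FPKM, and *Cd68* was at 17.0, 27.4 and 16.7 FPKM. All 5 genes of the aerocyte list (*Car4*, *Ednrb*, *Apln*, *Fibin* and *Tbx2*), which mark a capillary cell type of the alveolus, were lowest in S52 under every scaling tried, with a median of 143, 153 and 65.6 FPKM. The 5 general capillary genes had a median of 268, 371 and 282 FPKM. Of the 4 vein genes, *Slc6a2* (69.4, 81.7 and 23.2 FPKM) and *Vwf* (298, 314 and 235 FPKM) were lowest in S52, and *Nr2f2* and *Ackr1* were highest there, at 3.04 FPKM or less. In bulk samples fewer cells of a type and less RNA per cell cannot be told apart. Of the 4 lymphatic genes 3 were detected, with *Flt4* at 23.7, 23.8 and 19.8 FPKM, *Mmrn1* at 19.4, 17.6 and 0.236 FPKM and *Pdpn* at 2.39, 1.84 and 3.09 FPKM, while *Prox1* was below 1 FPKM in each library. *Pdpn* and *Prox1* were highest in S52, where *Mmrn1* was lowest, 16.5-fold below S38 on the FPKM + 1 scale. The platelet genes were also lowest in S52, *Itga2b* by 14.3-fold, *Gp9* by 16.6-fold, *Ppbp* by 62.2-fold and *Pf4* by 69.3-fold. Whether the reads of *Mmrn1* came from lymphatic ECs was not tested. The T cell gene *Cd3e* was below 1 FPKM in S38 and S44 and listed at 0 in S52. Depth was estimated from the steps of low values at 38000000, 38800000 and 33900000 fragments. At that depth the least covered of the 10 values, *Smad7* in S44, stands for about 2207 fragments and a counting error of 2.13%, far below its spread between libraries of 16.1% (CV). Over the 10 genes the CV between libraries ran from 6.78% (*Bmpr2*) to 19.3% (*Id2*).

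**Figure D2:**
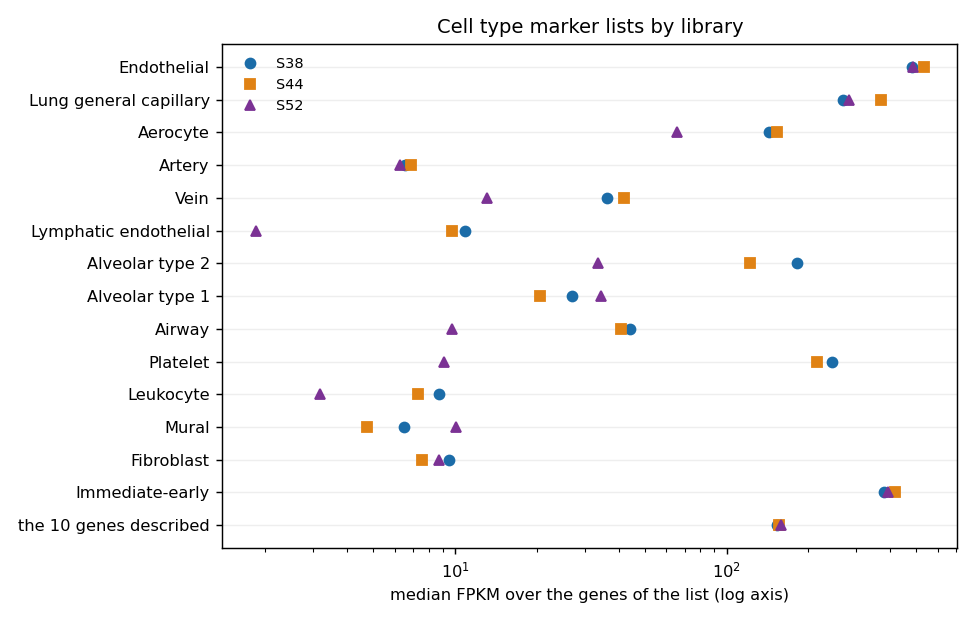
Median FPKM (log axis) over the genes of each cell type marker list, with 1 point for each library. The platelet, alveolar type 2, airway and aerocyte lists are lower in S52 than in S38 and S44, while those of the endothelial list lie between 482 and 533 FPKM in all 3 libraries. The medians of the alveolar type 1 and mural lists are highest in S52.

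*Acvrl1* was the highest of the 10 genes. It encodes ALK1, the receptor that binds BMP9 and BMP10 in endothelium, and spans 101128522 to 101145336 of chromosome 15 (plus strand, build GRCm38, also called mm10), with 11 exons in its longest transcript. It was at 776, 828 and 911 FPKM (mean 839 ± 68.3, SD, n = 3), which ranks 111 among all genes. The other type I receptors of the BMP pathway were far lower. *Acvr1* (ALK2) was at 16.8 ± 1.24 FPKM, *Bmpr1a* (ALK3) at 2.18 ± 0.921 FPKM and *Bmpr1b* (ALK6) at 0.107 ± 0.143 FPKM (SD, n = 3 for each). *Acvrl1* held 97.8% ± 0.320 (SD, n = 3) of the sum of the 4 type I receptors. Within a library it was 50.1 ± 4.72 times as high as *Acvr1* (SD, n = 3), a ratio that library scaling cannot move. The range of *Acvrl1* did not meet that of any other type I receptor. The antisense gene *Gm16031*, which has no row in the table, shares 87 of the 3797 exonic bases of *Acvrl1*, and without strand information its reads could not be told from those of *Acvrl1*.

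*Bmpr2*, the type II receptor with a long cytoplasmic tail, spans 59763400 to 59879014 of chromosome 1 (plus strand). It was at 159.7, 157 and 140.5 FPKM (mean 152 ± 10.3, SD, n = 3), rank 600. It took 94.0% ± 1.06 (SD, n = 3) of the summed FPKM of *Bmpr2*, *Acvr2a*, *Acvr2b* and *Amhr2*, the only type II receptors counted. Of the others, *Acvr2a* was at 7.99 ± 1.37 FPKM (SD, n = 3), and *Acvr2b* was at 1.52, 2.33 and 0.324 FPKM. *Amhr2*, the receptor of anti-Müllerian hormone, stayed under 1 FPKM in each library. The gap between *Acvrl1* and *Bmpr2* depends on the length of the transcript. *Acvrl1* was 5.54 ± 0.845 times as high per length (SD, n = 3), but the longest *Bmpr2* transcript has 12899 bp and the longest *Acvrl1* transcript 3640 bp, so the estimated fragments differed by only 1.52 ± 0.233 times (SD, n = 3). The transcript lengths behind the FPKM values are not given in the sources used here.

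*Eng* encodes endoglin, a membrane glycoprotein that presents BMP9 and BMP10 to ALK1, and spans 32646595 to 32682669 of chromosome 2 (plus strand). Its level was 658, 646 and 542 FPKM (mean 616 ± 63.9, SD, n = 3), rank 174. It made up 94.5% ± 0.348 (SD, n = 3) of the sum of 5 co-receptors. Betaglycan (*Tgfbr3*) followed at 26.2 ± 3.03 FPKM (SD, n = 3) and *Rgmb*, which encodes a repulsive guidance molecule that binds BMPs, at 8.88 ± 1.54 FPKM (SD, n = 3). *Rgma* and *Hfe2* (hemojuvelin) had means below 1 FPKM. *Acvrl1* was higher than *Eng* in each library, by a ratio of 1.18, 1.28 and 1.68. An exon of *Fpgs* on the other strand shares 61 of the 3572 exonic bases of *Eng*, and the libraries carry no strand information, but *Fpgs* itself was at 8.35 FPKM or below.

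**Figure D3:**
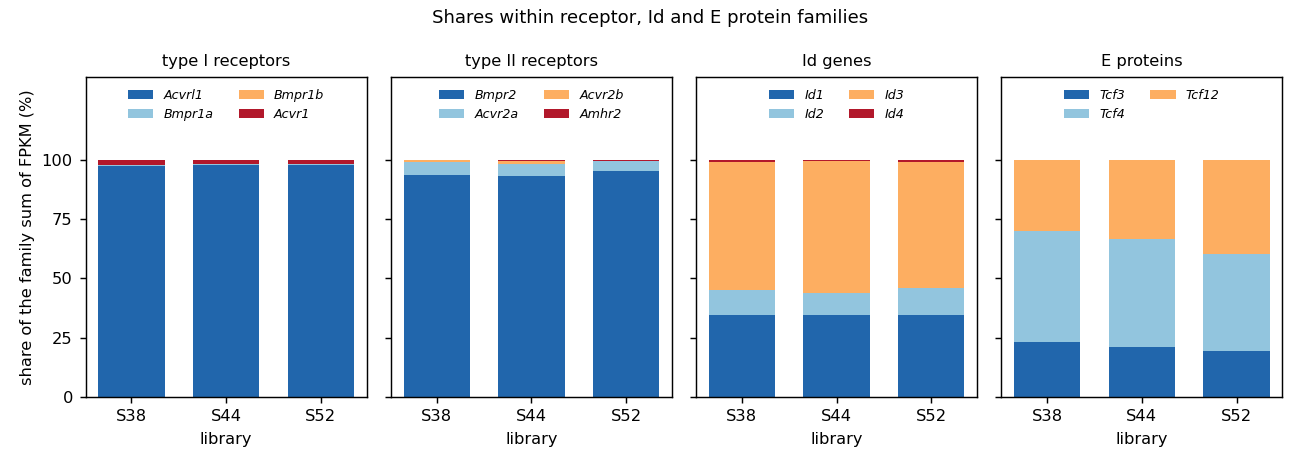
Share of each gene in the summed FPKM of its family (%), in each library, for the type I receptors, the type II receptors, the Id genes and the E proteins that Id proteins bind. *Acvrl1* and *Bmpr2* each fill over 93% of the sum of the receptor genes shown with them in every library, and *Id1* holds 34.4% to 34.5% of the Id sum.

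*Bmp6* was the highest of 11 ligand genes. It encodes a secreted ligand that regulates hepcidin when released by liver ECs, and spans 38345107 to 38500302 of chromosome 13 (plus strand). It was at 139.8, 156 and 137 FPKM (mean 144 ± 10.1, SD, n = 3), rank 628. Of the other 10 ligands, 4 averaged 1 FPKM or more, near the 48.3% of all genes. *Bmp4* was at 10.8 ± 3.87 FPKM and *Bmp5* at 5.72 ± 3.08 FPKM (SD, n = 3 for each), and *Inhbb*, which encodes an activin subunit, at 3.04 ± 1.33 FPKM (SD, n = 3). *Bmp2* was at 0.911, 0.840 and 2.25 FPKM. *Bmp6* accounted for 86.8% ± 3.58 (SD, n = 3) of the sum of the 11 ligands. The circulating ligands of ALK1 were near or at 0. *Gdf2*, which encodes BMP9 and is made mainly by the liver, was listed at 0, 0.0904 and 0 FPKM, and *Bmp10*, which is made by the heart, was listed at 0 in all 3 libraries, as was *Inhba*. For a gene of 2000 bp, a listed 0 leaves room for up to 0.0395, 0.0386 and 0.0443 FPKM, the worth of 3 fragments, by counting error alone. An exon of *Txndc5* on the opposite strand overlaps 224 of the 3593 exonic bases of *Bmp6*, where 4.91% of the read-length windows of *Bmp6* also occur in *Txndc5*. *Txndc5* was at 35.6, 32.2 and 39.0 FPKM, below *Bmp6* in every library.

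*Smad6* and *Smad7* encode the inhibitory Smads, which block receptor kinases and receptor Smads, with *Smad6* acting mainly on the BMP branch. *Smad6* spans 63953076 to 64022059 of chromosome 9 (minus strand). It was at 141, 119.7 and 100.5 FPKM (mean 120.4 ± 20.2, SD, n = 3), rank 738. *Smad7* (chromosome 18, plus strand, 75367529 to 75395935) was at 19.0, 13.8 and 17.7 FPKM (mean 16.9 ± 2.72, SD, n = 3), rank 4478. *Smad6* was 7.25 ± 1.51 times as high as *Smad7* (SD, n = 3). The ranges of the paralogues did not overlap. The 3 receptor Smads of the BMP branch were lower than *Smad6*. *Smad1* was at 22.5, 18.8 and 11.8 FPKM and *Smad5* at 14.4, 15.8 and 18.2 FPKM, so that *Smad1* was the higher of the pair in S38 and S44 and *Smad5* in S52. *Smad9* was at 1.20 ± 0.152 FPKM (SD, n = 3), and the common partner *Smad4* at 31.7 ± 2.81 FPKM (SD, n = 3). The inhibitory Smads together were 4.18, 3.73 and 3.81 times the sum of the receptor Smads, or 3.91 ± 0.242 (SD, n = 3).

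*Id1*, *Id2* and *Id3* encode helix-loop-helix proteins without a DNA-binding region, which pair with E proteins and keep them from DNA. *Id3* (chromosome 4, plus strand, 136143497 to 136145392) was the highest, at 229.7, 244 and 271 FPKM (mean 248 ± 20.9, SD, n = 3), rank 407. *Id1* (chromosome 2, plus strand, 152736251 to 152737410) was at 146, 151 and 177 FPKM (mean 158 ± 16.2, SD, n = 3), rank 582. *Id2* (chromosome 12, minus strand, 25093799 to 25097140) was at 46.7, 40.5 and 59.0 FPKM (mean 48.7 ± 9.39, SD, n = 3), rank 1792. The order *Id3*, *Id1*, *Id2* held in each library without overlap, and all of them were highest in S52 in the values as deposited, which for *Id1* and *Id3* depends on the scaling of the libraries, as given further on. *Id4*, the remaining paralogue, was at 3.65 ± 1.12 FPKM (SD, n = 3). Of the proportions within the family, that of *Id1* to *Id3* moved least. *Id3* was 1.57, 1.62 and 1.53 times as high as *Id1*, or 1.57 ± 0.0415 (SD, n = 3), and *Id1* held 34.4% ± 0.0893 (SD, n = 3) of the sum of the 4 genes. *Id1* was 3.14, 3.72 and 2.99 times as high as *Id2*, and *Id3* was 67.0, 91.7 and 55.6 times as high as *Id4*. The sum of the Id genes was 5.54 ± 0.387 times (SD, n = 3) that of the E protein genes *Tcf3*, *Tcf4* and *Tcf12*. Of those, *Tcf4* (E2-2) was highest at 36.9 FPKM, and *Tal1*, a blood and endothelial factor that also pairs with E proteins, had a mean of 24.6 FPKM. In the *Id2* transcripts 7 of 2433 read-length windows of 51 bp also occur in the gene *Gm6175*, whereas those of *Id1* and *Id3* occur in no other annotated gene.

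*Tmem100* encodes a small membrane protein that is induced by BMP9 and BMP10 through ALK1 in endothelium. It spans 90030348 to 90036508 of chromosome 11 (plus strand). It was at 849, 851 and 684 FPKM (mean 795 ± 96.0, SD, n = 3), rank 125. It was above *Acvrl1* in S38 and S44 and below it in S52, so the order of these genes was not the same in every library. Its ratio to *Eng* was 1.29, 1.32 and 1.26, or 1.29 ± 0.0273 (SD, n = 3).

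Ordered by mean, the 10 genes ran *Acvrl1*, *Tmem100*, *Eng*, *Id3*, *Id1*, *Bmpr2*, *Bmp6*, *Smad6*, *Id2* and *Smad7*. As deposited, 5 of the 9 neighbouring pairs had ranges that did not overlap. They were *Tmem100* above *Eng*, *Eng* above *Id3*, *Id3* above *Id1*, *Smad6* above *Id2* and *Id2* above *Smad7*. With each library rescaled to the same sum, *Tmem100* and *Eng* overlapped. As deposited, *Acvrl1* and *Tmem100* overlapped, as did *Id1* with *Bmpr2*, *Bmpr2* with *Bmp6*, and *Bmp6* with *Smad6*. The ranges do not separate these neighbours. Within each library, however, *Bmpr2* was above *Bmp6* in 3 of 3, by a ratio of means of 1.06. An exact paired test over 3 libraries cannot go below p = 0.25, and none was run. The genes nearest in level over the 3 libraries, by Euclidean distance of log2(FPKM + 1), were *Cfl1*, *Rps20* and *Rps18* for *Acvrl1* (distances 0.11, 0.14 and 0.16). For *Eng* they were *Srgn*, *Sdpr* and *Esam* (0.066, 0.15 and 0.17), and for *Bmpr2* they were *Paip2*, *Lamp2* and *Galnt18* (0.073, 0.096 and 0.10).

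Most other genes of the pathway were lower. Of 53 such genes, 36 averaged 1 FPKM or more, against 48.3% of all genes, with a median of 3.65 FPKM over the 53. The membrane protein gene *Cav1*, at 1294 ± 37.1 FPKM (SD, n = 3), lay above all 10 genes described, and *Fkbp1a* above 7 of them. *Hes1* (99.5 FPKM), *Dll4* (86.6 FPKM) and *Gja4* (86.2 FPKM) had higher means than *Id2* and *Smad7*. Of the extracellular antagonists and modulators 7 of 14 were detected, near the 48.3% of all genes. *Fstl1* was the highest of them at 27.6 ± 2.73 FPKM (SD, n = 3), followed by *Twsg1* at 12.9 ± 1.78 FPKM (SD, n = 3). The antagonist genes *Nog* (noggin) and *Chrd* (chordin) averaged below 1 FPKM, and *Grem1* (gremlin) was listed at 0 in all 3 libraries. *Bambi*, which encodes a receptor-like protein without a kinase, was at 6.78, 6.60 and 11.0 FPKM. All 6 intracellular regulators were detected. *Fkbp1a*, whose product FKBP12 binds the type I receptors and keeps them inactive, was the highest at 577 ± 11.7 FPKM (SD, n = 3), and the ubiquitin ligase gene *Smurf2*, at 69.7 ± 4.78 FPKM, exceeded *Smurf1*, at 17.3 ± 0.752 FPKM (SD, n = 3 for each). The extreme libraries lay over 2-fold apart for 3 of the 36 (*Bmp5*, *Acvr2b* and *Hey2*), against 12.7% of all detected genes.

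**Figure D4:**
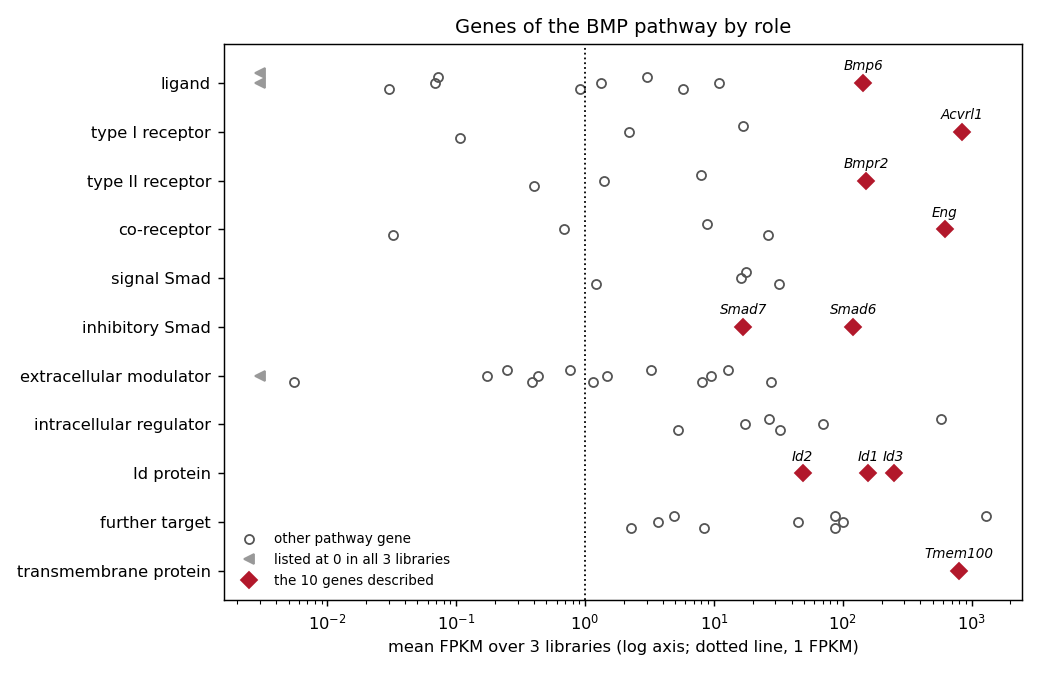
Mean FPKM over the 3 libraries (log axis) of the 10 genes described (red diamonds) and of 53 other genes of the BMP pathway (open circles), in rows by role; grey triangles at the left edge mark genes listed at 0 in all 3 libraries and the dotted line is 1 FPKM. *Acvrl1*, *Bmpr2*, *Eng* and *Bmp6* each lie to the right of every other gene of their role.

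S52 was the highest library for 4 of the 10 genes (*Acvrl1*, *Id1*, *Id2* and *Id3*) and the lowest for 5 (*Bmpr2*, *Eng*, *Bmp6*, *Smad6* and *Tmem100*). Among all detected genes it was highest for 33.9% and lowest for 46.3%, so the counts alone lie near the background. The differences were small. Against S38, the log2 ratio of FPKM + 1 in S52 was 0.23 for *Acvrl1*, 0.27 for *Id1*, 0.33 for *Id2* and 0.24 for *Id3*, and -0.28 for *Eng*, -0.31 for *Tmem100* and -0.48 for *Smad6*, with a median of -0.083 over all detected genes. With each library rescaled to the same sum over all genes, *Acvrl1*, *Id1* and *Id3* were highest in S38 instead and *Bmpr2* was lowest in S44. Short noncoding genes took 59.6%, 70.2% and 66.8% of that sum, which are shares of FPKM, a value per gene length, and not of fragments. S52 was then highest for 1 of the 10 genes (20.5% of all detected genes) and lowest for 4 (40.5%). The median log2 ratio of all detected genes in S52 over S38 became -0.34, below the -0.067 of *Acvrl1*, the -0.028 of *Id1* and the -0.061 of *Id3*. Without the short noncoding genes in the sum, and with the endothelial medians set equal, S52 was again highest for 4 of the 10 (34.2% and 38.1% of all detected genes) and lowest for 5 (46% and 39.8%). *Eng*, *Bmp6*, *Smad6* and *Tmem100* were lowest in S52, and *Id2* highest, under all of these scalings.

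Most of the 9 further target genes were highest in S52. The list holds *Id4*, *Atoh8*, *Hey1*, *Hey2*, *Hes1*, *Dll4*, *Gja4*, *Gja5* and *Cav1*. Apart from the membrane protein gene *Cav1*, they respond to BMP9 or BMP10 in ECs or mark arterial ECs. Several of them are also genes of the Notch pathway. S52 was highest for 7 of the 9 as deposited, against 33.9% of all detected genes, for 5 after rescaling to the same sum (20.5% of all genes), for 8 without short noncoding genes in the sum (34.2%) and for all 9 with equal endothelial medians (38.1%). It was lowest for none of the 9 under any of these scalings. The targets among the 10 genes described, which are not in this list, were divided. *Smad6* and *Tmem100* were lowest in S52 under all of these scalings. *Id2* was highest there under all of them, and *Id1* and *Id3* under all but the rescaling to the same sum. *Hey1* was at 37.5, 33.6 and 63.0 FPKM, *Gja4* (connexin 37) at 58.1, 88.7 and 112 FPKM, and *Atoh8* at 3.39, 4.51 and 6.66 FPKM. *Gja5* (connexin 40), at 8.03, 8.81 and 8.42 FPKM, and *Cav1*, at 1253, 1324 and 1307 FPKM, did not follow them as deposited. The pattern was seen after the values were known and rests on 1 library. In that library the aerocyte, platelet, airway and alveolar type 2 genes were low, as given above, and 3 of 5 mural genes and, as deposited, 3 of 7 immediate-early genes were highest. All 7 immediate-early genes averaged 100 FPKM or more, with a list sum of 3092, 3860 and 4637 FPKM. *Fosb* and *Ier3* were over 2-fold apart with S52 highest, and *Jun* was lowest in S52. The study's methods digest the tissue with enzymes before sorting, and the part of that step in the levels given here was not tested. S52 was also highest for 3 of 5 general capillary genes as deposited (4 of 5 without short noncoding genes in the sum and with equal endothelial medians). For the endothelial list it was highest for 3 of 10 as deposited and for 7 of 10 with equal endothelial medians, the scaling under which all 9 targets were highest. As deposited, S52 was highest for no gene of the artery list (*Gja5*, *Bmx*, *Dkk2* and *Efnb2*). The median of that list was 6.51, 6.88 and 6.27 FPKM. *Bmx* and *Efnb2* (141, 158 and 136 FPKM) were lowest in S52, and *Gja5* and *Dkk2* were lowest in S38. The part of these lists in the result was not tested.

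**Figure D5:**
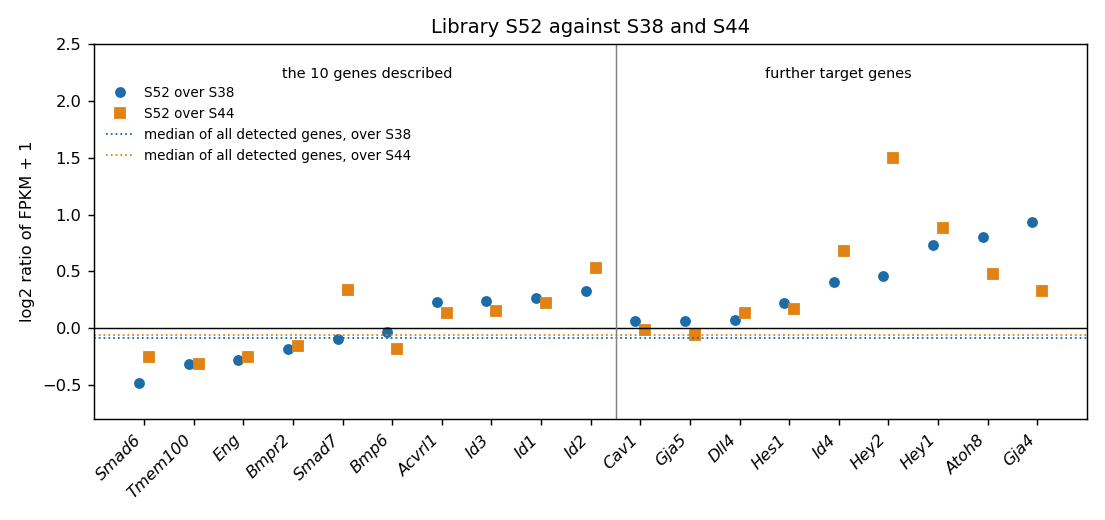
Log2 ratio of FPKM + 1 of library S52 over S38 (circles) and over S44 (squares) for the 10 genes described and for 9 further target genes, with the median of all detected genes as dotted lines. *Id1*, *Id2*, *Id3* and *Acvrl1* lie above 0 in both ratios and *Smad6*, *Tmem100*, *Eng*, *Bmpr2* and *Bmp6* below, in the values as deposited.

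Windows from 250 bases before to 50 after the start of the RefSeq transcript (GRCm38.p6) were matched for 6 of the 10 genes (*Bmp6*, *Bmpr2*, *Eng*, *Id2*, *Id3* and *Smad6*). The start is the same in GENCODE M21, the source of the gene spans above, for *Eng* and *Smad6*. For the others the RefSeq start lies inside the GENCODE gene, by 609 bases in *Bmp6*, 879 in *Bmpr2*, 1048 in *Id2* and 325 in *Id3*. The windows of *Bmp6*, *Bmpr2* and *Id3* are thus wholly exonic in GENCODE, and that of *Id2* lies wholly within its gene, with 211 of its bases in exons. They were searched on both strands for GTCTAGAC, the palindrome that Smad proteins bind, for GGCGCC, a GC-rich element bound by the BMP receptor Smads, and for CAGAC, the core of the Smad box. GTCTAGAC occurred in 1 of the 6 windows and in 0.213% of the 32851 windows of all genes, GGCGCC in 2 of 6 and in 11.9%, and CAGAC in 3 of 6 and in 49.6%. The *Smad6* site spans the start of both annotations, from 4 bases before it to 4 after (chr9:64022045-64022074, minus strand, for the stretch shown). The stretches of *Id2* (chr12:25096306-25096335, minus strand) and *Bmpr2* (chr1:59764162-59764191, plus strand) hold GGCGCC, and those of *Id3* (chr4:136143643-136143672 and chr4:136143742-136143771, plus strand) hold CAGAC and its reverse complement. In GENCODE the stretches of *Bmpr2* and *Id3* are exonic and that of *Id2* is intronic. The stretches printed are a choice among the matches. CAGAC or its reverse complement also occurred in *Eng*, at -214 and -127 from the start and outside its GENCODE gene. It occurred in *Bmp6* as well, at -119 from the RefSeq start. Those stretches are not printed. Capitals mark the motif, and a match describes the sequence and is not a binding site.
*Smad6*: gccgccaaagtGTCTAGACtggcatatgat
*Id2*: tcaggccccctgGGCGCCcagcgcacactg
*Bmpr2*: ctccggcggccgGGCGCCgctgcctgcccc
*Id3*, first site: tgtcctcggcgtCAGACcagcctaaggaag
*Id3*, second site: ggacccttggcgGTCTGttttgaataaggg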

How the data were processed

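RNA of FACS-purified lung ECs was poly-A selected and sequenced as paired reads without strand information. Per gene symbol, FPKM values for mm10 were deposited by the authors. The submitters' processing notes name Trimmomatic 0.36, TopHat2 2.1.0 and Cufflinks 2.2.1, whereas the paper's methods describe STAR and HTSeq counts. The gene annotation is not given in the sources used here. All 3 sample columns were used as deposited. Because FPKM values are not counts and there is 1 group, no model was fitted. Means, SDs and shares are on the FPKM scale, and ratios between libraries are on the FPKM + 1 scale, which understates changes of low genes. Depth was estimated, with a method set only once the values were known, as the number of fragments that makes low values of 7077 genes with a single transcript (800 to 4000 bp in GENCODE M21) whole numbers. In S38, S44 and S52, 79.0%, 77.4% and 74.9% of 324, 412 and 207 such low values came within 0.15 of one. These shares describe the fit and are not a check of it, since the depth was fitted to the same values. The code was tested on simulated data. Gene positions are those of GENCODE M21 and the windows searched for motifs those of RefSeq.

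The 10 genes, the pathway and marker lists and the rule for named genes were chosen with earlier results of these data known, and the motifs after the files were seen. The rule names the 10 genes, the highest and lowest of each list, and the 3 genes nearest in level to *Acvrl1*, *Eng* and *Bmpr2*; other genes of these lists were named after their values were seen. Alternatives were 3 library scalings, other detection thresholds, a pseudocount of 0.1, no filter on low values and leaving out each library. Python 3.11.15, pandas 2.3.3 and numpy 2.4.6 were used.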

Additional observations from a re-analysis of the deposited data

How the results depend on the processing

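All 10 genes remained detected, and none was over 2-fold apart between libraries, under every alternative tried for these counts. The number of the 10 over 1.5-fold apart, an alternative threshold chosen after seeing the data, was 0 as deposited, 4 with each library rescaled to the same sum and 1 with equal endothelial medians, and 0 without any 1 library. The median of the 10 genes was 155 FPKM and fell to 113 with each library rescaled to the same sum. It rose to 329 when the sum left out short noncoding genes, since that sum is smaller, and lay between 153 and 156 without 1 library. Of the 53 other pathway genes, 36 were detected (35 without any 1 library) and 18 reached 10 FPKM. The number detected was 32 with each library rescaled to the same sum, 39 without short noncoding genes in the sum and 36 with equal endothelial medians. It was 32 when 1 FPKM was required in every library and 45 at a mean of 0.1 FPKM. The number of the 53 genes over 2-fold apart also moved. It was 3 as deposited, 8 with each of the rescalings to a common sum, 5 with equal endothelial medians, and 10 with a pseudocount of 0.1. Leaving out 1 library gave between 1 and 2, with 1 without S44 and 1 without S52. The number of neighbouring pairs in the order of the 10 genes without overlap was 5 as deposited and 4 with each library rescaled to the same sum. It was 5 with the other scalings, and 6 to 7 without 1 library, since fewer libraries give narrower ranges. At the estimated depth the counting error was at most 2.13% for the 10 genes, so depth limits mainly the genes near 0.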

Other observations

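Most listed genes of inherited pulmonary hypertension or hereditary haemorrhagic telangiectasia outside the 10 genes described were also detected. Of a list of 15, 13 averaged 1 FPKM or more, against 48.3% of all genes. The exceptions were the ligand genes *Gdf2* and *Bmp10*. The water channel gene *Aqp1* was the highest at 2018 ± 284 FPKM, followed by *Cav1*, which encodes caveolin-1, at 1294 ± 37.1 FPKM (SD, n = 3 for each). *Kdr*, which encodes the VEGF receptor VEGFR2, was at 379.9, 360.4 and 237 FPKM. *Ephb4*, a venous receptor gene mutated in vascular malformations, was at 58.3 ± 2.70 FPKM, and the transcription factor genes *Sox17* and *Tbx4* were at 35.9 ± 3.70 and 5.87 ± 1.96 FPKM (SD, n = 3 for each). *Eif2ak4*, the gene of pulmonary veno-occlusive disease, was at 3.67 ± 0.274 FPKM (SD, n = 3). *Kcnk3*, a potassium channel gene best known from pulmonary arterial muscle, was at 1.34, 0.819 and 1.77 FPKM. *Atp13a3*, a polyamine transporter gene, was the only detected gene of the list whose extreme libraries lay over 2-fold apart, at 17.8, 12.4 and 7.94 FPKM.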
